A study of Mus musculus with 4 samples.

Results

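The genes described here supply and buffer the energy and oxygen of the working heart: the creatine kinase genes Ckm, Ckmt2 and Ckb, the creatine transporter gene Slc6a8, and the myoglobin gene Mb. Every probe of the deposited value table whose platform symbol is 1 of these 5 was taken, which gave 7 probes for 5 genes of 16593 named in the table, or 7 probes of 25697. Ckmt2 and Mb had 2 probes each, and Ckm, Ckb and Slc6a8 had 1 each.

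Whole hearts of C57Bl6 mice of 8 to 9 weeks were compared in 4 groups, all of them with 1 kidney removed and all homozygous for a floxed mineralocorticoid receptor gene. The wild-type group (WT; MR flox/flox, no Cre) and the cardiomyocyte MR-null group (CM-MRKO; MR flox/flox MLC2v Cre) each received vehicle or DOC/salt for 8 days. DOC is deoxycorticosterone, a steroid that activates the mineralocorticoid receptor. MLC2v is the ventricular myosin light chain, so Cre acts in ventricular cardiomyocytes, while a whole heart also holds atria, vessels, fibroblasts and blood. RNA of 8 hearts was pooled for each group, and each pool was read on 1 Illumina bead array. A single array per group leaves no spread between samples to test against, so no p-value is given. None of the probes was named Nr3c2, the receptor gene, so the genotype labels were not checked against it.

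In a heart muscle cell, the transporter encoded by Slc6a8 takes creatine up from the blood, since the cell makes little of its own. Ckmt2 encodes the sarcomeric mitochondrial creatine kinase, which uses mitochondrial ATP to charge creatine to phosphocreatine, and Ckm and Ckb encode the muscle and brain subunits of the cytosolic enzyme, which recover ATP from phosphocreatine beside the myofilaments and ion pumps. Mb encodes the haem protein that stores oxygen in heart and red skeletal muscle and helps it reach the mitochondria.

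The sequences around the transcription start are shown because they set the muscle genes Ckm, Ckmt2 and Mb beside the more widely expressed Ckb. They are RefSeq windows of build GRCm38.p6, from 250 bases before to 50 bases after the start, written 5′ to 3′ on the gene's own strand. Capitals mark E-boxes (CANNTG, the core that muscle bHLH factors such as MyoD can bind) and the letters TATAA, each searched on both strands. Ckm lies at chr7:19410844-19411143 (+), Ckmt2 at chr13:91876836-91877135 (-), Ckb at chr12:111672289-111672588 (-) and the Mb window shown, 1 of 3 listed for that gene, at chr15:77022678-77022977 (-).
Ckm: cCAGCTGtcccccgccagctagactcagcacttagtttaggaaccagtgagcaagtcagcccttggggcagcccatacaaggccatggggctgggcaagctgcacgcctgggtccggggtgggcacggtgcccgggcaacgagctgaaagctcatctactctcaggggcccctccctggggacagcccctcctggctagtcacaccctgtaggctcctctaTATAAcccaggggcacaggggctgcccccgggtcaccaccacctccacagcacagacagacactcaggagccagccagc
Ckmt2: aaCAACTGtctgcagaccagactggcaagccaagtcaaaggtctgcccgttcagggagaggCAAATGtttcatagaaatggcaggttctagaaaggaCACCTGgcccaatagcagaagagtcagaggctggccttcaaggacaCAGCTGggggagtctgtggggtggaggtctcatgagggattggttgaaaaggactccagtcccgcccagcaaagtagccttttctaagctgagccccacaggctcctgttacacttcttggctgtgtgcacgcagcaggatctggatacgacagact
Ckb: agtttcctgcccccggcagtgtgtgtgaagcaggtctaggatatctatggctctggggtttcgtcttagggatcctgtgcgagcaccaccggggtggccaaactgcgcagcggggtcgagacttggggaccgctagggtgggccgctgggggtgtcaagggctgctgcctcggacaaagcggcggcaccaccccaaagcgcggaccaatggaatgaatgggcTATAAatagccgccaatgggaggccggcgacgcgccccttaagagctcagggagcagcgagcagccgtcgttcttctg
Mb: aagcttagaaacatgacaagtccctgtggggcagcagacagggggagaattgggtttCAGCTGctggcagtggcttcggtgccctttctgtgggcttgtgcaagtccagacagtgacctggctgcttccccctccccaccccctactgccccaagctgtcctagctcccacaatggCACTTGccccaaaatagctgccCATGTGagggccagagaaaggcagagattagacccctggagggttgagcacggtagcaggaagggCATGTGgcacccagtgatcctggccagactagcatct

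The Ckmt2 window and the Mb window shown each held 4 E-boxes, the other Mb windows held 3 and 2, the Ckm window held 1 and the Ckb window 0. Of 32851 windows of this length 72.3% held at least 1, and the share holding 4 was not counted. Ckm and Ckb each had 1 TATAA, which 24.9% of all windows had, and the one in Ckb overlapped a match to the MEF2 motif, which 3.19% of all windows had. The letters AGAACA, a half-site of the element that corticosteroid receptors bind, were in 19.0% of all windows and in none of the 4 printed. Another Mb window, at chr15:77050619-77050918 (-), held 1 copy. Such matches describe letters in these windows and not binding.

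The 4 arrays differed in brightness, and the WT vehicle array stood apart from the other 3. Median deposited intensities ran from 91.5 to 102.7. Across the 6825 named probes detected throughout, Pearson's r was 0.974 to 0.977 between WT vehicle and each other array and 0.993 to 0.995 among those 3; probes are not independent replicates. Before normalization 93.0% of 8754 detected named probes were dimmest on the WT vehicle array, and so were 7 of the 7 member probes. Of the 9 cardiomyocyte markers with a probe, 8 were detected on at least 1 array and 7 on WT vehicle, and Ryr2 was on none. The summed intensities of the 9 were 87603 to 114115. Of 8 skeletal muscle markers, 1 was detected on each array. Tnni2 was detected on 3 arrays and Actn3 on CM-MRKO vehicle alone, at 126.3. Mybpc1, Myh1, Myh4, Tnnt3, Myod1 and Myog were on none. After normalization Tnni2 differed by -0.65 on the log2 scale between the vehicle pools, lower in CM-MRKO.

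All 7 member probes were detected on all 4 arrays, which means that under 0.01 of 1338 probes for odorant, vomeronasal and taste receptor genes were as bright. The faintest value, that of Slc6a8 on the WT vehicle array, was 3.60 times the detection limit, and the Ckmt2 probes were at least 131 times above it. Because probes differ in how well they bind, values are compared between arrays for the same probe and not between probes.

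**Figure D1:**
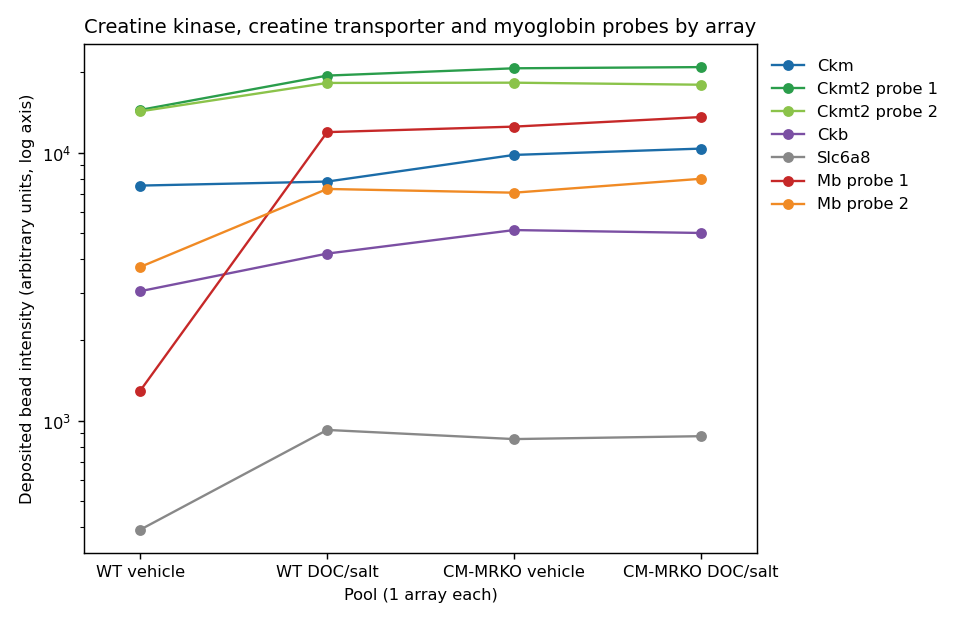
Deposited bead intensity (log axis, arbitrary units) of the 7 probes on the 4 arrays, with 1 point per probe and array and lines joining the points of a probe. The first Mb probe reads 1294.8 on the WT vehicle array and 11927.4 to 13578.4 on the other 3, while the 2 Ckmt2 probes run side by side.

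Slc6a8 read 392.1 under vehicle and 923.6 under DOC/salt in WT hearts, and 853.8 and 875.3 in CM-MRKO hearts. The WT vehicle array was the low one, and the other 3 lay close together. After background correction and quantile normalization, which set the arrays to a common distribution, the creatine transporter was 1.59-fold higher after DOC/salt in WT hearts (0.67 on the log2 scale). In CM-MRKO hearts the same difference was -0.07. CM-MRKO vehicle lay 0.53 above WT vehicle, short of the 1.5-fold at which a probe was counted here as higher or lower, and under DOC/salt the genotypes differed by -0.21.

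For Ckmt2, the mitochondrial enzyme, the brighter probe (ILMN_2817864) read 14434.6 under vehicle and 19385.3 under DOC/salt in WT hearts, and 20640.3 and 20851.6 in CM-MRKO hearts. The other probe (ILMN_2698052) read 14257.9, 18201.6, 18240.8 and 17924.0 in the same order. After normalization DOC/salt moved the 2 probes by 0.15 and 0.06 on the log2 scale in WT hearts and by -0.09 and -0.08 in CM-MRKO hearts. Between the genotypes the differences were 0.11 and -0.07 under vehicle and -0.13 and -0.22 under DOC/salt, so the probes differed in sign under vehicle. The normalized levels of Ckmt2 thus lay within 1.5-fold on all 4 arrays by both probes.

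Ckm, the muscle subunit of the cytosolic enzyme, read 7535.6 under vehicle and 7800.2 under DOC/salt in WT hearts, and 9806.6 and 10353.6 in CM-MRKO hearts. The 2 WT pools were dimmer than the 2 CM-MRKO pools on this scale. After normalization WT DOC/salt was the lowest, at 12.84 on the log2 scale, both CM-MRKO pools were at 13.12, and WT vehicle was the highest, at 13.26. The DOC/salt response was -0.42 in WT hearts and 0.00 in CM-MRKO hearts, and under DOC/salt CM-MRKO lay 0.28 above WT. The 8 detected cardiomyocyte markers had a median of -0.07 in the WT response, with 1 higher, Pln at 2.02, and 0 lower. Of all genes, by their brightest probe, 8.87% were higher and 3.99% lower. Pln was below the detection limit on WT vehicle, at 94.6. Between the genotypes under DOC/salt the marker median was 0.06, with 0 past 1.5-fold, where 0.852% of all genes were higher and 0.941% lower.

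Ckb, the brain subunit, which smooth muscle, endothelial and neural cells also make, read 3041.7 under vehicle and 4201.3 under DOC/salt in WT hearts, and 5142.7 and 5016.0 in CM-MRKO hearts. After normalization the 4 values lay between 11.96 and 12.18 on the log2 scale. DOC/salt differences were -0.03 in WT and -0.14 in CM-MRKO hearts, and CM-MRKO lay 0.20 above WT under vehicle and 0.09 above it under DOC/salt. In bulk tissue a change in the number of cells of a type and a change in RNA per cell cannot be told apart. Of 5 smooth muscle markers 3 were detected on each array, and between the genotypes their normalized median was 0.03 under vehicle and 0.30 under DOC/salt. The endothelial markers had a median of -0.26 under vehicle, with 5 detected, and of -0.01 under DOC/salt, with 4 detected. Of 6 neural markers 2 were detected, with medians of -0.20 and 0.07. In these 3 lists 0 markers passed 1.5-fold between the genotypes. Of all genes 7.52% were higher and 2.40% lower under vehicle, and 0.852% and 0.941% under DOC/salt. With so few markers detected, a count of 0 is near these shares. Their summed deposited intensities were 11664.5 to 18091.8 for smooth muscle, 1720.4 to 2652.2 for endothelial and 596.3 to 700.2 for neural markers, each lowest on WT vehicle, where most probes were dimmest on that scale. The part of other cell types in the Ckb values was not tested.

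The 2 probes for Mb, both assigned to 1 RefSeq transcript, gave different pictures. The brighter probe (ILMN_2954987) read 1294.8 under vehicle and 11927.4 under DOC/salt in WT hearts, and 12505.6 and 13578.4 in CM-MRKO hearts. It was low on the WT vehicle array alone, where each other array read 9.21 to 10.5 times as much. The second probe (ILMN_1234662) read 3746.3, 7321.5, 7089.3 and 7988.4 in the same order, again lowest in WT vehicle but by far less. After normalization DOC/salt in WT hearts was 6.50-fold higher by the first probe (2.70 on the log2 scale) and 1.38-fold by the second (0.47), which did not reach 1.5-fold. CM-MRKO vehicle was 6.63-fold above WT vehicle by the first probe and 1.23-fold by the second. These comparisons share the WT vehicle array.

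On the other 3 arrays the 2 myoglobin probes ran in parallel. DOC/salt in CM-MRKO hearts moved them by 0.04 and 0.16 on the log2 scale, and the genotypes under DOC/salt differed by 0.07 and -0.01. The deposited ratio of the first to the second probe was 1.63 on WT DOC/salt and 1.76 and 1.70 on the CM-MRKO arrays, but 0.346 on WT vehicle. The same ratio for the 2 Ckmt2 probes ran from 1.01 to 1.16 over all 4 arrays.

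The disagreement was measured for every gene with at least 2 probes detected on all 4 arrays. For each probe the WT vehicle value was set against the mean of the other 3 arrays on the normalized log2 scale. The 2 Mb probes lay at -2.73 and -0.40, a spread of 2.33 or 5.03-fold. The 2 Ckmt2 probes lay at -0.09 and 0.06, a spread of 0.15 or 1.11-fold. The median spread over 1064 such genes was 0.29. Spreads at least as wide as that of Mb were found for 6 genes, Mb included, or 0.564%, and 75.0% of genes had a spread at least as wide as that of Ckmt2.

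The other 5 genes were Atp2a2, Hnrnpm, Lamp2, Csrp3 and Pigp, named after their values were seen. Atp2a2, the calcium pump of the sarcoplasmic reticulum, had 1 probe at 222.0 on WT vehicle and 5402.1 to 6466.1 on the other arrays, and another at 15158.2 against 19263.9 to 21344.0. Csrp3, a muscle LIM protein gene, had 1 probe at 220.0 against 1055.7 to 1540.8 and a second at 13193.6 against 19155.6 to 20763.6. In both, as in Mb, the dim values of a single probe on WT vehicle set the spread.

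Of all 8754 detected named probes, 416 (4.75%) lay at least 1.5-fold below each of the other 3 arrays on the WT vehicle array after normalization, and among the members the first Mb probe alone did. By the size of its deficit against the mean of the other arrays it was among the lowest 18 probes (0.206%). Slc6a8, at -0.55, and the second Mb probe, at -0.40, had 8.06% and 13.8% of probes at or below them. Ckb, at -0.08, and Ckm, at 0.23, lay nearer the centre, with 37.0% and 75.1% at or below. Of 71 genes with a probe in this low set and another probe detected on all 4 arrays, 2 had every probe in it and 69 had a probe outside it, as Mb did.

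**Figure D2:**
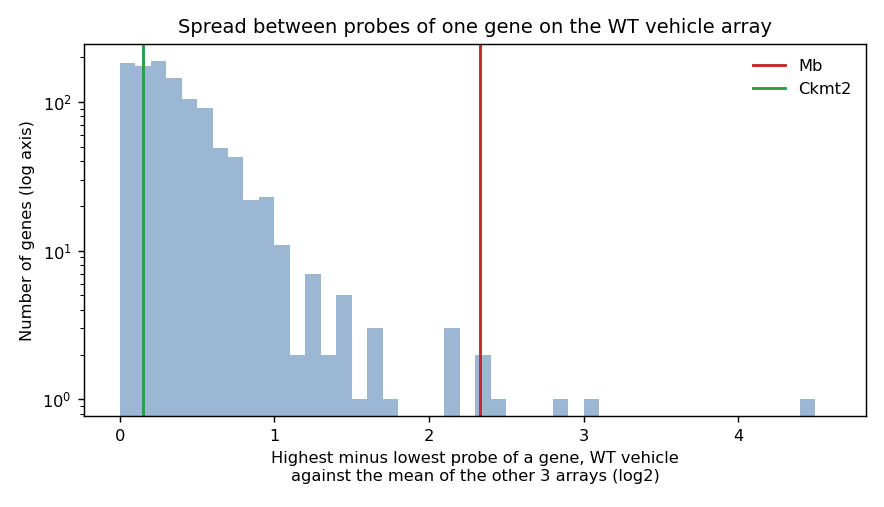
Number of genes (log axis) by the spread between their probes, the highest minus the lowest log2 difference between the WT vehicle array and the mean of the other 3, over 1064 genes with at least 2 probes detected on all 4 arrays. Ckmt2, at 0.15, lies in the bulk, and Mb, at 2.33, lies among the 6 widest.

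In the DOC/salt response of WT hearts 2 of 7 probes were higher, Slc6a8 and the first Mb probe, and 0 were lower, with a median of 0.15 on the log2 scale against -0.04 over 8133 probes. Of all probes 9.31% were higher and 3.96% lower, so 2 of 7 rests on a background in which a higher call was common. The technical spread, the SD between log2 differences of the 2 brightest probes of a gene divided by the square root of 2, was 0.38 here over 1345 genes; it holds no spread between animals. Slc6a8 and both Mb probes exceeded it upwards and Ckm downwards, while Ckb and both Ckmt2 probes lay within it. The sign of the creatine kinase values in this comparison depended on the scaling. Ckb was at 0.28 with median scaling and -0.23 with scaling to detected probes, the Ckmt2 probes were at 0.23 and 0.16 under the former and -0.28 and -0.36 under the latter, and Ckm was at 0.05 on the deposited values. Slc6a8 lay between 0.61 and 1.24, the first Mb probe between 2.56 and 3.20 and the second between 0.27 and 0.97 under every scaling and background setting run. Over all probes the balance of calls turned from 757 higher and 322 lower to 488 and 590 after scaling to the probes detected throughout. Under median scaling it was 2539 and 13, a scaling that moved the median of all probes from -0.04 to 0.40.

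In CM-MRKO hearts DOC/salt left the whole group within 1.5-fold. None of the 7 probes was higher or lower, against 0.587% and 0.482% of 8511 probes, and the differences ran from -0.14 (Ckb) to 0.16 (second Mb probe) with a median of -0.07. The technical spread was 0.18, and 0 of the 7 exceeded it. With the WT vehicle array left out before normalization the range was -0.15 to 0.14.

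Between the genotypes under vehicle, 1 of 7 probes was higher in CM-MRKO, the first Mb probe, and 0 were lower, with 7.90% and 2.88% of 8102 probes called. The member median was 0.20. With median scaling Slc6a8 and the second Mb probe were also past 1.5-fold, at 1.02 and 0.70, with the median of all probes at 0.37. Over all probes the balance of 640 higher and 233 lower turned to 390 and 457 with scaling to detected probes.

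Under DOC/salt the genotypes did not differ by 1.5-fold at any member probe, against 0.866% of 8544 probes higher and 1.11% lower. Values ran from -0.22 (second Ckmt2 probe) to 0.28 (Ckm), and the technical spread was 0.20. Ckm had the largest difference of the 7 probes here, followed by the second Ckmt2 probe and Slc6a8 at -0.21. With the WT vehicle array left out before normalization these 3 were at 0.28, -0.19 and -0.21.

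Subtracting the WT response from the CM-MRKO response gave a lower value for 2 of 7 probes, the first Mb probe at -2.66 and Slc6a8 at -0.74, and a higher one for 0. Of 8754 probes 10.7% were lower and 6.68% higher. The second Mb probe was at -0.31, within the technical spread of 0.42, and Ckm at 0.42. For the first Mb probe and Slc6a8 the value came mainly from the WT response, since their CM-MRKO responses were 0.04 and -0.07. The WT response uses both WT arrays. CM-MRKO minus WT was 2.73 and 0.53 for these probes under vehicle, and 0.07 and -0.21 under DOC/salt.

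**Figure D3:**
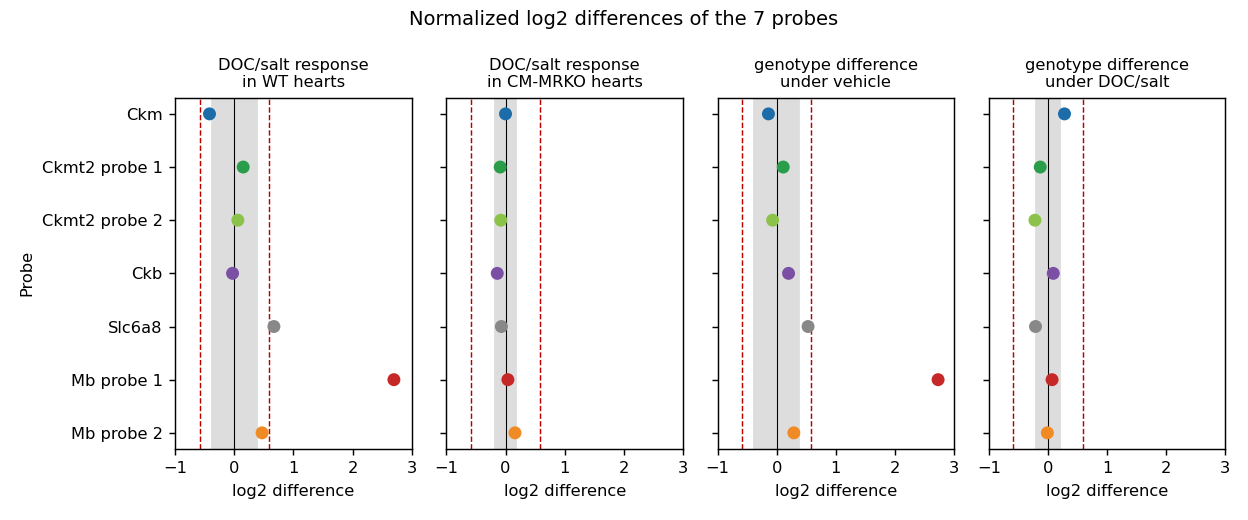
Normalized log2 differences of the 7 probes in the 4 comparisons, each point 1 probe, with the grey band at plus and minus the technical spread and dashed lines at 1.5-fold. In the 2 comparisons without the WT vehicle array the points lie between -0.22 and 0.28, and in the others the first Mb probe lies at 2.70 and 2.73.

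On the 3 arrays other than WT vehicle, the normalized range of a member probe, highest minus lowest, was 0.07 for the first Mb probe, 0.17 for the second, 0.21 for Slc6a8, 0.23 for Ckb and 0.28 for Ckm. The 2 Ckmt2 probes ranged over 0.13 and 0.22. The median range of all 8754 probes was 0.22, so the group was about as steady as a typical detected probe.

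Genes around these members were taken from 9 lists of 67 genes, 58 with a probe, each represented by its brightest probe. Some have further probes whose values are not given here, such as Slc25a3 and Prkaa2, with 2 each, and Vegfa and Mef2c, with 3 each. Probes of 1 gene can disagree on WT vehicle, as those of Mb did. After DOC/salt in WT hearts, 7 of 41 detected genes passed 1.5-fold upwards and 0 downwards, where 8.87% and 3.99% of 6391 genes did. In CM-MRKO hearts 2 of 42 were higher and 0 lower, against 0.599% and 0.420%. CM-MRKO vehicle was higher than WT vehicle for 9 of 39 and lower for 0, against 7.52% and 2.40%, and under DOC/salt 1 of 42 was higher and 0 lower, against 0.852% and 0.941%. Some of these genes were counted only through the array where they were higher, being below the detection limit on the other. They were Hbb-bt and Hif3a in the WT response, and Hif3a and Gata4 in the CM-MRKO response. Between the genotypes they were Hbb-bt under vehicle and Gata4 under DOC/salt. These counts are therefore not a result about the lists.

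Creatine synthesis and the other ways into the cell were sparsely read. Gatm, whose product makes guanidinoacetate, was not detected on any array. Gamt, which methylates guanidinoacetate to creatine, read 212.2 and 243.4 under vehicle and DOC/salt in WT hearts and 253.5 and 310.2 in CM-MRKO hearts, with DOC/salt responses of -0.42 in WT and 0.25 in CM-MRKO. Ckmt1, the ubiquitous mitochondrial creatine kinase gene, and Slc16a12, a creatine carrier gene, were not detected. Slc6a6, the taurine transporter gene and a relative of Slc6a8, had responses of 0.16 and 0.04.

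Adenylate and nucleoside diphosphate kinases shuttle phosphate beside creatine kinase. Of them 1 of 7 detected was higher in the WT response and 0 in CM-MRKO, against 8.87% and 0.599% of all genes. That gene was Ak1, the cytosolic adenylate kinase, which read 286.7 on WT vehicle and 670.3 to 741.5 on the other arrays, a response of 0.86 in WT and -0.04 in CM-MRKO. Nme2, Nme1, Nme3 and Ak3 differed by -0.33, -0.09, -0.01 and -0.08 in WT.

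The carriers that exchange ADP, ATP and phosphate across the mitochondrial membranes had 3 of 5 members higher in WT, with a median of 0.76. In CM-MRKO 0 of 5 were higher, with a median of 0.01. Of all genes 8.87% were higher in WT and 0.599% in CM-MRKO. The 3 higher in WT were the phosphate carrier gene Slc25a3 at 0.77 and the outer membrane channel genes Vdac2 at 0.80 and Vdac3 at 0.76. Vdac1 was at -0.27 and Slc25a5, an ADP/ATP carrier gene, at -0.16. Of the 6 listed genes 5 had a probe, so the exchange of ADP and ATP was not read in full. On the deposited scale all 5 were dimmest on the WT vehicle array, as most probes were, with 735.4 against 1851.7 to 1965.9 for Slc25a3 and 834.4 against 1085.4 to 1256.9 for Vdac1. The comparison of CM-MRKO with WT vehicle shares that array and gave 0.77, 0.71 and 0.65 for them.

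Genes of the M-line, where the muscle enzyme docks, gave no call in either response, with 3 detected. Of all genes 8.87% were higher and 3.99% lower in WT, and 0.599% and 0.420% in CM-MRKO, so 0 of 3 is near these shares. Myom1, encoding myomesin, was at 0.18 in WT and -0.10 in CM-MRKO, the LIM protein gene Fhl2 at 0.40 and -0.08, and the ubiquitin ligase gene Trim63 at 0.34 and -0.24. Myom2 was not detected.

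Among other globins, cytoglobin (Cygb) read 698.3 and 1348.9 in WT and 1335.2 and 1211.6 in CM-MRKO hearts (vehicle, then DOC/salt) and responded by 0.35 in WT and -0.25 in CM-MRKO. Hba-a1, the haemoglobin alpha chain gene of red cells, read 19190.3 and 18841.7 in WT and 19708.5 and 22734.8 in CM-MRKO hearts, with responses of -0.18 and 0.17. Hbb-bt was below the detection limit on WT vehicle, at 103.5, and at 177.0 to 185.6 on the other arrays. Neuroglobin (Ngb) was not detected.

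Of the hypoxia genes, Vegfa, the endothelial growth factor gene, was at 0.50 in WT, 0.12 in CM-MRKO and 0.61 between the vehicle pools, where it was past 1.5-fold. Epas1 was at 0.12 and -0.13. Egln1 and Egln3, oxygen-sensing prolyl hydroxylase genes, were at 0.18 and 0.38 in WT and 0.12 and -0.15 in CM-MRKO. Hif3a, a relative of the hypoxia-inducible factors, passed 1.5-fold in both DOC/salt responses, at 0.68 in WT and 0.59 in CM-MRKO. It was detected after DOC/salt only, at 126.2 in WT and 140.9 in CM-MRKO, with 95.1 and 108.6 under vehicle. Hif1a was not detected.

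The list of muscle and mitochondrial transcription holds factors, coactivators and genes of the phosphatase calcineurin: its catalytic subunits Ppp3ca and Ppp3cb and its regulator Rcan1. Of its 18 members 1 of 12 detected was higher in the WT response and 1 of 13 in the CM-MRKO response. The shares of all genes were 8.87% and 0.599%. In WT the member was Ppargc1a, a coactivator of mitochondrial genes, which read 134.1 on WT vehicle and 281.3 to 298.1 elsewhere. Its response was 1.05 in WT and -0.13 in CM-MRKO. The member higher in CM-MRKO was Gata4, detected on CM-MRKO DOC/salt alone, the array where it was higher. It read 141.2 there and 92.5 to 107.8 on the others. Mef2c, whose product binds muscle promoters, was at 0.53 and -0.39, and 0.83 between the vehicle pools. The brightest 4 of the list, Rcan1, Ppp3cb, Esrra and Ppargc1b, were at -0.45, -0.20, -0.38 and -0.53 in WT and between -0.26 and -0.03 in CM-MRKO. Prkaa2, the catalytic subunit of the AMP-activated kinase in muscle, was at 0.46 and -0.32, and 0.62 between the vehicle pools, and Prkag1, Prkab1 and Prkag2 were at -0.47, -0.14 and -0.22 in WT and 0.17, -0.04 and -0.01 in CM-MRKO.

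**Figure D4:**
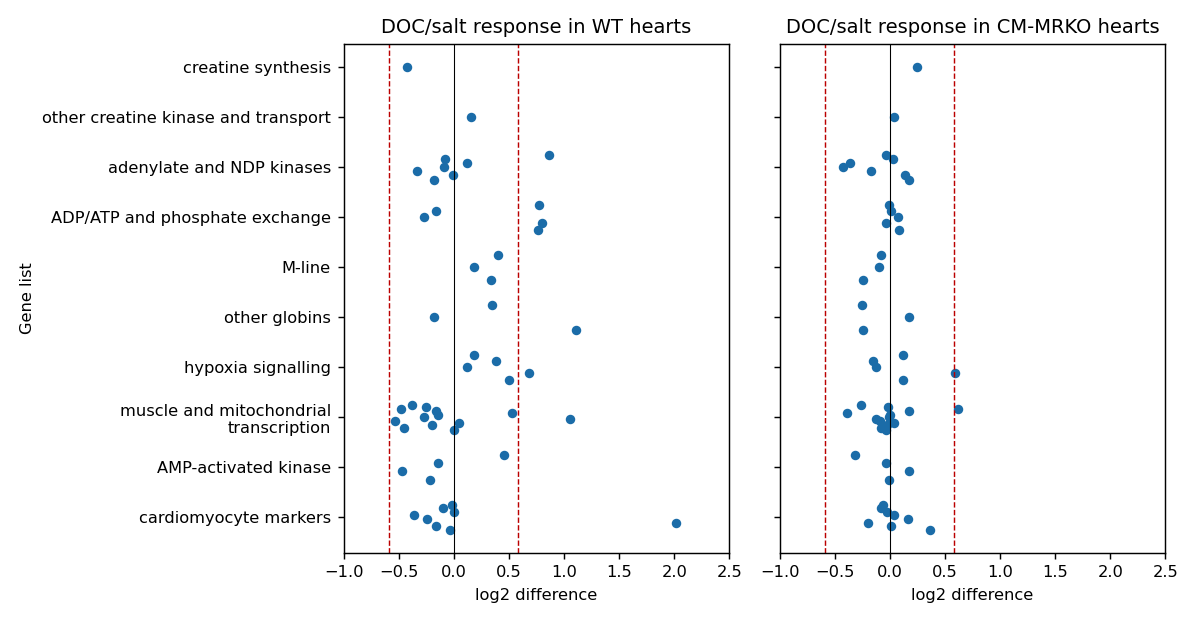
Normalized log2 differences after DOC/salt in WT and CM-MRKO hearts for the detected genes of the related lists and the cardiomyocyte markers, 1 point per gene by its brightest probe, with dashed lines at 1.5-fold. Points scatter more widely in WT, where 7 of the related genes and the marker Pln are past 1.5-fold upwards, than in CM-MRKO, where 2 related genes are. Pln, Hbb-bt and Hif3a were below the detection limit on WT vehicle, and the 2 genes higher in CM-MRKO were below it on CM-MRKO vehicle.

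The probes whose normalized pattern over the 4 arrays was nearest to each member were found by the smallest maximum difference between profiles, each less its own mean. For the first Mb probe they were Uqcrb, a subunit of respiratory complex III, Dcn, a matrix proteoglycan, and Igfbp7, at 0.068, 0.101 and 0.128 on the log2 scale. Each was dim on WT vehicle alone, such as Dcn with 395.2 against 3886.7 to 4135.2. The second Mb probe was nearest to Golga1, Gsto1 and Tubb4b, so the 2 probes of 1 gene had no neighbour in common. Slc6a8 was nearest to Fndc3b, Csrnp2 and Fcgr3, and Ckm to Alg14, Plac9a and Tpcn2. Ckb was nearest to Ddah1, Ring1 and Ostf1, the first Ckmt2 probe to Hmgxb4, Cox18 and Birc2, and the second to Dctn4, Gimap8 and Ppcs. With 4 arrays and 6823 to 6824 candidates, near profiles are easily found, and these are descriptions.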

How the data were processed

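Whole-heart RNA of 4 pools was measured on single-channel Illumina bead arrays stained with Cy3. The values deposited by the authors are linear bead intensities, with background still in them and array medians that differ. The submitters' processing notes name Partek, with no version; the sources used here give no other step and no build. A further deposited table was not used, since its 4 columns, named by number only, match no sample label. The treatment protocol names vehicle for every sample, and groups were taken from the titles.

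Intensities were corrected with normexp (maximum likelihood, offset 16), quantile normalized over the 4 arrays and put on the log2 scale in limma 3.58.1 under R 4.3.3; the remaining steps used Python 3.11.15. A probe was detected on an array where under 0.01 of 1338 chemosensory receptor probes were as bright, and entered a comparison if detected on at least 1 of its arrays. The lowest detected intensities were 108.8 to 121.8, and 29.4% to 34.2% of probes were detected. Calls were made at 1.5-fold. The number of arrays limits the precision. Of 25697 probes 23978 had 1 symbol, 0 had several and 1719 were unnamed here; 23962 matched the GRCm38.p6 gene table by gene identifier, with 0 symbols changed. Probe sequences and positions were not used here. Promoter windows matched 4 of 5 genes.

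Members and lists were chosen with earlier results of these data known. Named genes come from the members, up to 4 of the brightest genes of each list, list genes past 1.5-fold and the 3 nearest profiles per probe. Ryr2, Myh1, Myh4, Mybpc1, Tnnt3, Hif1a and Ngb, named as not detected, fall outside that rule. Other names are marked. Steps were tested on simulated data, built from the WT DOC/salt array with random noise and a brightness factor per array. No probe was made low on WT vehicle alone there, so that test does not bear on this pattern. Alternatives changed background correction, offset, scaling, fold, detection limit, probe filter, probe choice and the arrays normalized.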

Additional observations from a re-analysis of the deposited data

How the results depend on the processing

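A reversal was looked for only in values past 1.5-fold in the main setting, and not in counts. Among single-probe differences between groups only the first Mb probe and Slc6a8 had such values, and neither reversed. Smaller values did change sign in the WT response. The first Ckmt2 probe went from 0.15 to -0.28 with scaling to detected probes, and Ckb from -0.03 to 0.28 with median scaling. Of 148 alternative values for the counts, medians and probe spreads, 141 moved by no more than 1.5 times (counts) or by less than the technical spread (values). Part of the 141 could not move. All 7 member probes were detected on all 4 arrays, so another detection limit or no filter on dim probes had to return the main values. The other 7 all involve the WT vehicle array. Of the alternative values for single probes 200 moved by less than the technical spread and 31 by that or more, among them Slc6a8 from 0.67 to 1.24 and the second Mb probe from 0.47 to 0.97 in the WT response on the deposited values, and, in a comparison that does not use the WT vehicle array, the first Ckmt2 probe from -0.13 to 0.11 between the genotypes under DOC/salt on the same values. In the WT response 3 probes were higher both on the deposited values and after median scaling, the second Mb probe being at 0.97 and 0.78. The count of higher probes fell to 1 at a 2-fold threshold, and 1 probe, Ckm at -0.66, became lower with scaling to detected probes. Under vehicle, median scaling gave 3 higher probes, and the deposited values gave 4, with a median of 0.76. In the difference of responses 3 probes were lower under the same settings, 1 probe was lower at 2-fold, and 1 was higher with scaling to detected probes, Ckm again. The cause was not tested. The Mb probe spread stayed between 2.29 and 2.35 and that of Ckmt2 between 0.14 and 0.15 under every scaling, offset and detection limit tried. A constant per array cancels in this spread, so median scaling and scaling to detected probes had to give the same value. The detection limit could not change the spread of these genes either. Agreement among those settings is thus no evidence of stability. The share of genes at least as wide as Mb was 0.282% to 0.658%. No paired analysis was possible because each group holds 1 pool and the labels give no replicate numbers. Leaving out a replicate was not possible for the same reason.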
